A study of Mus musculus with 12 samples.

Results

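DNA replication and S phase genes are described here as 47 genes, found by matching their symbols to the gene names of a table of 56748 genes measured by RNA sequencing. Each symbol matched 1 row. The genes fall into 8 roles: origin licensing, helicase activation, the clamp and its loader, polymerases and primase, single-strand binding and Okazaki fragment processing, nucleotide supply, chromatin and histone supply, and E2F factors. The cells were of the mouse melanoma line 4599 in 4 groups of 3 libraries each, named Met, DIF, PIF and TB by the labels. Met cells were isolated from lung metastases, and DIF, PIF and TB cells from parts of orthotopic melanomas whose abbreviations the labels do not spell out. All 4 groups were afterwards grown in the same way in culture, on a layer of fibrillar collagen from bovine dermis at 1.7 mg/ml, with 10% serum for 24 h and with 1% serum for a further 24 h before RNA was taken. The values therefore describe isolated cells in culture, not the tumour parts themselves.

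DNA is copied once per cell cycle. In G1, the origin recognition complex, Cdc6 and Cdt1 load the Mcm2 to Mcm7 helicase onto origins, and in S phase Cdc45, the GINS complex and Mcm10 turn the loaded helicase into an active fork at which the polymerases, the PCNA clamp and the enzymes of deoxynucleotide supply work. Many of these genes are transcribed late in G1 and in S phase through E2F factors, so that their RNA is often used to follow how much of a cell population is replicating. In bulk RNA, fewer cells in S phase and less RNA per cell cannot be told apart.

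Reads rebuilt from the deposited values came to 15.5 to 18.4 M per library. The members took between 50 reads (Fen1) and 8188 reads (Rrm1) in a library. Their mean FPKM, fragments per kilobase and per M fragments, was 1.97 to 118 with a median of 15.3, against a median of 6.14 over the 12661 genes tested, and all 47 passed the filter of a mean FPKM of at least 0.5. The labelled cell type was checked against 14 melanocyte and melanoma markers: Sox10 had 203 to 269 FPKM and S100b 57.9 to 107 FPKM in the 12 libraries, whereas Tyrp1 was at 0 in all of them and Tyr and Dct stayed under 0.14 FPKM. Mitf averaged 4.25 FPKM in Met, 4.24 in DIF, 11.1 in PIF and 15.2 in TB cells. Markers of fibroblasts, leukocytes, keratinocytes, lung epithelium and endothelium summed to at most 15.8, 3.35, 3.31, 0.666 and 0.360 FPKM in a library. No label says if replicates stem from separate animals or cultures, so p-values measure the spread between these libraries, which may be technical.

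Promoter sequences were matched for 40 of the 47 genes in RefSeq (build GRCm38.p6). Each sequence runs from 250 bases before to 50 bases after the annotated start, 5′ to 3′ on the gene's strand. The 4 printed here belong to the members that differed most between the 4 groups, as described further on, and capitals mark every match on either strand to TTTCCCGC, TTTGGCGC or TTTCGCGC (letters of E2F sites), to CCAAT (the box bound by NF-Y) and to TTTGAA or TTCGAA (the CHR element of many cell cycle genes).
Cdt1 (chr8:122567765-122568064, plus strand): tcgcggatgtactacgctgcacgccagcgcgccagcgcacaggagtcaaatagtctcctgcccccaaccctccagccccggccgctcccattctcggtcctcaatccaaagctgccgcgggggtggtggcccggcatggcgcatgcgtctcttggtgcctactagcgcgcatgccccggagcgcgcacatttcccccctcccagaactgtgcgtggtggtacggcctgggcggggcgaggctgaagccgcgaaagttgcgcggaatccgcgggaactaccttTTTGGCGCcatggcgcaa
Mcm3 (chr1:20820263-20820562, minus strand): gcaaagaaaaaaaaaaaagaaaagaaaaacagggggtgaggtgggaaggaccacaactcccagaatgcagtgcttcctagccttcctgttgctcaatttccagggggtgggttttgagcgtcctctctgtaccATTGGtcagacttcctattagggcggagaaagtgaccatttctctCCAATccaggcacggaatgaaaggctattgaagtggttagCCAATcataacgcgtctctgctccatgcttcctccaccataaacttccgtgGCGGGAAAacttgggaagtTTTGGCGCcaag
Cdc6 (chr11:98907901-98908200, plus strand): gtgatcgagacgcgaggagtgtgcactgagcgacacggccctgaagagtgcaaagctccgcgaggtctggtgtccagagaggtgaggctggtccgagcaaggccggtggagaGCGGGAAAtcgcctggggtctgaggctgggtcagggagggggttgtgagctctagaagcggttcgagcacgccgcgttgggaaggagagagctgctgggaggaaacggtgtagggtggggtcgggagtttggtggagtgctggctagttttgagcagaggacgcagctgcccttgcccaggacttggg
Cdc45 (chr16:18811923-18812222, minus strand): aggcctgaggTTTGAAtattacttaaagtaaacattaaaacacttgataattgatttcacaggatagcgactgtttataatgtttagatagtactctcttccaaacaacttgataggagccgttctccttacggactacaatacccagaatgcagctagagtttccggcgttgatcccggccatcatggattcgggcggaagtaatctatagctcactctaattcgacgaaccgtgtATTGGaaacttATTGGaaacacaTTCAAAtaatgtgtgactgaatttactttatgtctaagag

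The Cdt1 promoter held TTTGGCGC starting 33 bases into the transcript. That of Mcm3 held TTTGGCGC at position 39, TTTCCCGC on the opposite strand at position 20 and 3 CCAAT boxes upstream of the start, at −117, −72 and −32. The Cdc6 promoter held TTTCCCGC on the opposite strand at −138 and no CCAAT box, and the Cdc45 promoter held no E2F match, 2 CCAAT boxes on the opposite strand and 2 matches to TTTGAA, at −240 and, on the opposite strand, at position 11. No 2 of these matches overlapped. An E2F match stood in 13 of the 40 member promoters (32.5%), against 1.91% of 27025 RefSeq promoters of the same length. CCAAT stood in 26 (65% against 37.9%) and a CHR match in 7 (17.5% against 19.4%). The 13 genes with an E2F match were Cdc6, Cdt1, Orc1, Mcm3, Mcm5, Mcm6, Mcm7, Gins3, Rfc3, Pola1, Pold1, Pole2 and E2f2. In Mcm5 and Mcm6, matches to TTTGGCGC and TTTCGCGC on opposite strands overlapped, and in Mcm7 TTTCGCGC and CCAAT shared 1 base. Of these 13 genes, 5 were among those lower in DIF than in PIF cells described below, and of the 27 without a match, 8 were. A match is a stretch of letters, not a shown binding site.

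Across the 47 genes, PIF cells stood highest and DIF cells lowest. The PIF mean was the highest of the 4 group means in 34 genes (72.3%, against 30.3% of all genes tested) and the DIF mean was the lowest in 35 (74.5%, against 22.2%). In 17 genes the means ran in the order PIF, TB, Met, DIF from high to low, and in 12 the order was PIF, Met, TB, DIF. Pcna, with the highest mean FPKM of the members, followed the first of these orders, as did Cdt1. Cdc45 and E2f8 followed the second. How many of all genes tested have these orders was not counted. Neighbouring means were compared for the 12 members with the smallest F test p, by the tests described further on. Only PIF over TB for Cdt1 and PIF over Met for Cdc6 were called, so the other ranks are not shown to differ.

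**Figure D1:**
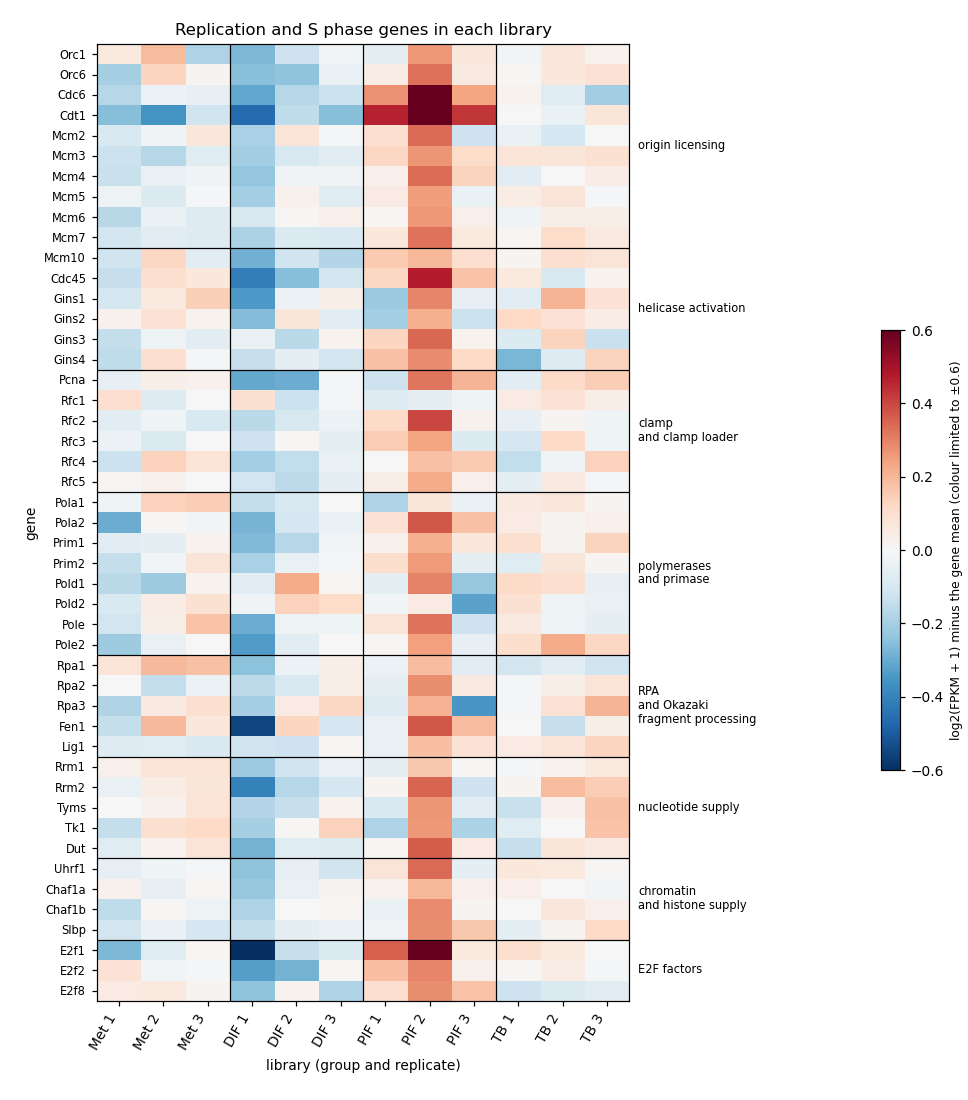
Each of the 47 genes (rows, by role) in each of the 12 libraries (columns, grouped as Met, DIF, PIF and TB), as log2(FPKM + 1) minus the gene's mean over all libraries, with colour limited to ±0.6. PIF replicate 2 stands out as the highest library in 43 genes and DIF replicate 1 as the lowest in 36.

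Single libraries carried much of this. PIF replicate 2 was the highest of the 12 libraries in 43 of 47 genes (91.5%, against 14.3% of all genes tested), the exceptions being Pola1, Pold2, Rfc1 and Rpa1. DIF replicate 1 was the lowest in 36 genes (76.6%, against 11.3%). Summed over the 47 genes, the FPKM was 1032, 1097 and 1111 in Met cells, 926, 1031 and 1071 in DIF cells, 1114, 1355 and 1112 in PIF cells and 1084, 1139 and 1147 in TB cells, each in the order of replicates 1 to 3. PIF replicates 1 and 3 thus lay within the range of the TB libraries, and DIF replicate 1 lay below every other library. The median gene was 0.28 above its own mean on the log2(FPKM + 1) scale in PIF replicate 2, 0.022 and 0.028 above in PIF replicates 1 and 3, and 0.22 below in DIF replicate 1 (a deviation of −0.22). PIF replicate 2 had 18.4 M reads, the most of any library, and a mitochondrial share of reads of 0.490%, against 0.632 and 0.728% in PIF replicates 1 and 3. Their part in the member values was not tested.

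**Figure D2:**
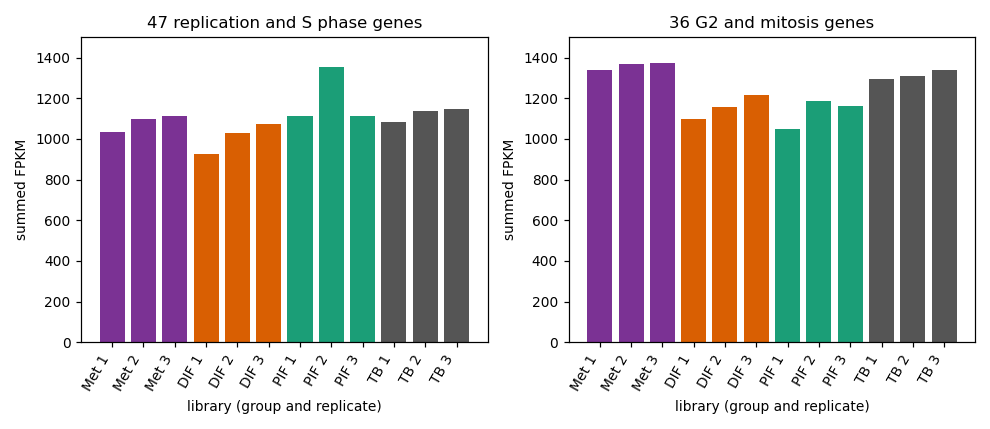
Summed FPKM (y axis, from 0) of the 47 replication and S phase genes and of 36 G2 and mitosis genes in each library, coloured by group. PIF replicate 2 reached 1355 in the first sum, above the other 11 libraries, and 1187 in the second, below all Met and TB libraries.

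The 6 pairs of groups were compared with limma on log2(FPKM + 1), with p-values adjusted over all 12661 genes by Benjamini-Hochberg and a call at an adjusted p under 0.05; every adjusted p below is of this kind. DIF against PIF cells gave most calls: 15 of the 47 genes (31.9%) fell and 0 rose, while 18.9% of all genes tested were called, 9.85% lower and 9.03% higher. Met against PIF cells gave 5 that fell and 0 that rose (10.6%), with 17.6% of all genes called, 8.8% lower and 8.85% higher. PIF against TB cells gave 3 that rose and 0 that fell (6.38%), with 14.1% of all genes called, 7.52% higher and 6.58% lower. Met against TB cells gave 1 that fell and 0 that rose (2.13%), with 9.94% of all genes called, 4.63% lower and 5.32% higher. DIF against TB cells gave 0 calls by limma (12 genes lower at an unadjusted p under 0.05, against 11.6% of all genes, and 3 calls by limma voom on the rebuilt reads), with 8.62% of all genes called, 4.36% lower and 4.26% higher. Met against DIF cells also gave 0 calls by limma (8 genes higher at an unadjusted p under 0.05, against 8.74% of all genes, and 0 calls by voom), with 3.86% of all genes called, 2.36% higher and 1.5% lower. The moderated F test over the 4 groups called 8 members, Cdt1, Mcm3, Cdc6, Cdc45, Mcm10, E2f8, Mcm7 and E2f1 (17%, against 24.8% of all genes). It called 3 members without DIF replicate 1 (22.8% of all genes) and 5 without TB replicate 2, DIF replicate 2, Met replicate 2 or Met replicate 3 (18.8 to 21%). Of these shares, that of members lower in DIF than in PIF cells stood furthest above the share of all genes.

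Of the 10 origin licensing genes, 6 fell in DIF against PIF cells (60%, against 9.85% of all genes tested): Cdt1, Cdc6, Orc6, Mcm3, Mcm7 and Mcm4. In Met against PIF cells 4 fell (40%, against 8.8%): Cdt1, Cdc6, Mcm3 and Mcm7. In PIF against TB cells 2 rose, Cdt1 and Cdc6 (20%, against 7.52%). In Met against TB cells 1 fell, Mcm3 (10%, against 4.63%). The median log2 fold change of the 10 genes was −0.26 in DIF against PIF, −0.21 in Met against PIF and 0.092 in PIF against TB. All 10 had their highest value in PIF replicate 2.

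Cdt1, which brings the helicase to the origin recognition complex (ENSMUSG00000006585, chromosome 8 from 123294754 to 123300293, plus strand in the deposited table, whose genome build is not given in the sources used here), had 14.1, 13.04 and 15.6 FPKM in Met cells, 12.1, 15.2 and 14.1 in DIF cells, 23.8, 27.95 and 23.3 in PIF cells and 17.01, 16.5 and 17.96 in TB cells. All 3 PIF libraries lay above the other 9. The PIF mean was 1.46 times the TB mean, a log2 fold change of 0.51 (SE 0.094, adjusted p = 0.0043). Cdt1 fell in DIF against PIF cells (log2 fold change −0.82, SE 0.094, adjusted p = 8.7e-05) and in Met against PIF cells (log2 fold change −0.77, SE 0.094, adjusted p = 0.00016), the largest changes of any member in each comparison. These 3 calls were kept under each of the 21 alternative settings and omissions run. Met and DIF cells did not differ beyond their spread (0.046, adjusted p = 0.863), and in neither was the gap to TB called (−0.26 with an adjusted p of 0.119 in Met, −0.30 with 0.0716 in DIF).

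Cdc6, the ATPase that loads the helicase together with Cdt1 (ENSMUSG00000017499, chromosome 11 from 98798627 to 98814766, plus strand), had 4.01, 4.50 and 4.43 FPKM in Met cells, 3.53, 3.996 and 4.15 in DIF cells, 5.80, 7.64 and 5.62 in PIF cells and 4.70, 4.34 and 3.87 in TB cells. The PIF libraries again lay above all others, with replicate 2 well above replicates 1 and 3. Cdc6 rose in PIF against TB cells (log2 fold change 0.46, SE 0.10, adjusted p = 0.0122) and fell in DIF against PIF cells (log2 fold change −0.58, SE 0.10, adjusted p = 0.002) and in Met against PIF cells (log2 fold change −0.46, SE 0.10, adjusted p = 0.00924). The fall in both DIF and Met against PIF cells was kept under all 21 alternatives, and the rise in PIF against TB cells was lost without TB replicate 3 or when only the 6 PIF and TB libraries were fitted (highest adjusted p = 0.0588).

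Among the subunits of the helicase itself, Mcm3 (ENSMUSG00000041859, chromosome 1 from 20873192 to 20890536, minus strand) had 44.1, 42.9 and 45.9 FPKM in Met cells, 41.7, 45.2 and 46.2 in DIF cells, 52.8, 58.3 and 52.3 in PIF cells and 51.1, 50.9 and 51.7 in TB cells. Every Met and DIF library lay below every PIF and TB library. Mcm3 fell in DIF against PIF cells (log2 fold change −0.29, SE 0.058, adjusted p = 0.00429) and in Met against PIF cells (log2 fold change −0.29, SE 0.058, adjusted p = 0.00467), both kept under all 21 alternatives. In Met against TB cells Mcm3 fell (log2 fold change −0.20, SE 0.058, adjusted p = 0.0466), a call lost in 9 of the 12 omissions of 1 library and kept without PIF replicate 2, PIF replicate 3 or DIF replicate 1. In DIF against TB cells the log2 fold change was −0.20 (SE 0.058, adjusted p = 0.0519), which was not called as run, and was called by voom and without PIF replicate 2 or PIF replicate 3.

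Mcm7 (ENSMUSG00000029730, chromosome 5 from 138162845 to 138170684, minus strand), a further subunit of the ring, had 46.02, 47.5 and 47.1 FPKM in Met cells, 43.5, 46.9 and 46.6 in DIF cells, 52.1, 62.6 and 51.8 in PIF cells and 50.1, 53.7 and 51.6 in TB cells. Met and DIF libraries lay below the others, and the PIF and TB libraries overlapped. Mcm7 fell in DIF against PIF cells (log2 fold change −0.27, SE 0.071, adjusted p = 0.0195), a call lost without DIF replicate 1, and in Met against PIF cells (log2 fold change −0.23, SE 0.071, adjusted p = 0.0419), a call lost in all omissions of 1 library except PIF replicate 1, PIF replicate 3 and DIF replicate 1. Mcm4 was at the threshold in DIF against PIF cells, −0.26 (SE 0.083, adjusted p = 0.0496), and kept the call only without PIF replicate 1 among the omissions of 1 library. Orc6, a subunit of the origin recognition complex, had 20.9, 21.1 and 24.3 FPKM in DIF cells and 25.98, 31.9 and 26.1 in PIF cells, and fell (log2 fold change −0.32, SE 0.099, adjusted p = 0.0389), a call lost without PIF replicate 2, DIF replicate 1, DIF replicate 2, Met replicate 3 or any 1 TB library.

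The remaining licensing genes were not called by limma as run, and Mcm6 was called in Met against PIF cells with quantile normalization and with the replicate block. Mcm2, Mcm5 and Mcm6 averaged 33.9 ± 1.94 FPKM in Met, 33.3 ± 3.25 in DIF, 37.2 ± 6.16 in PIF and 33.1 ± 1.21 in TB cells (SD, n = 3) for Mcm2, 40.2 ± 1.06 FPKM in Met, 39.1 ± 3.17 in DIF, 44.2 ± 4.76 in PIF and 42.5 ± 1.29 in TB cells for Mcm5, and 50.4 ± 2.24 FPKM in Met, 53.1 ± 2.55 in DIF, 57.9 ± 5.84 in PIF and 54.3 ± 1.38 in TB cells for Mcm6. Their log2 fold changes in DIF against PIF cells were −0.15, −0.17 and −0.12, of the same sign as those of Mcm3, Mcm4 and Mcm7. Mcm6 was the only helicase subunit whose Met mean lay below its DIF mean by more than 0.05 on the log2 scale (−0.074, SE 0.071). Orc1, the largest subunit of the origin recognition complex, was among the least abundant members, with 2.52 ± 0.452 FPKM in Met, 2.15 ± 0.278 in DIF, 2.70 ± 0.409 in PIF and 2.51 ± 0.104 in TB cells.

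**Figure D3:**
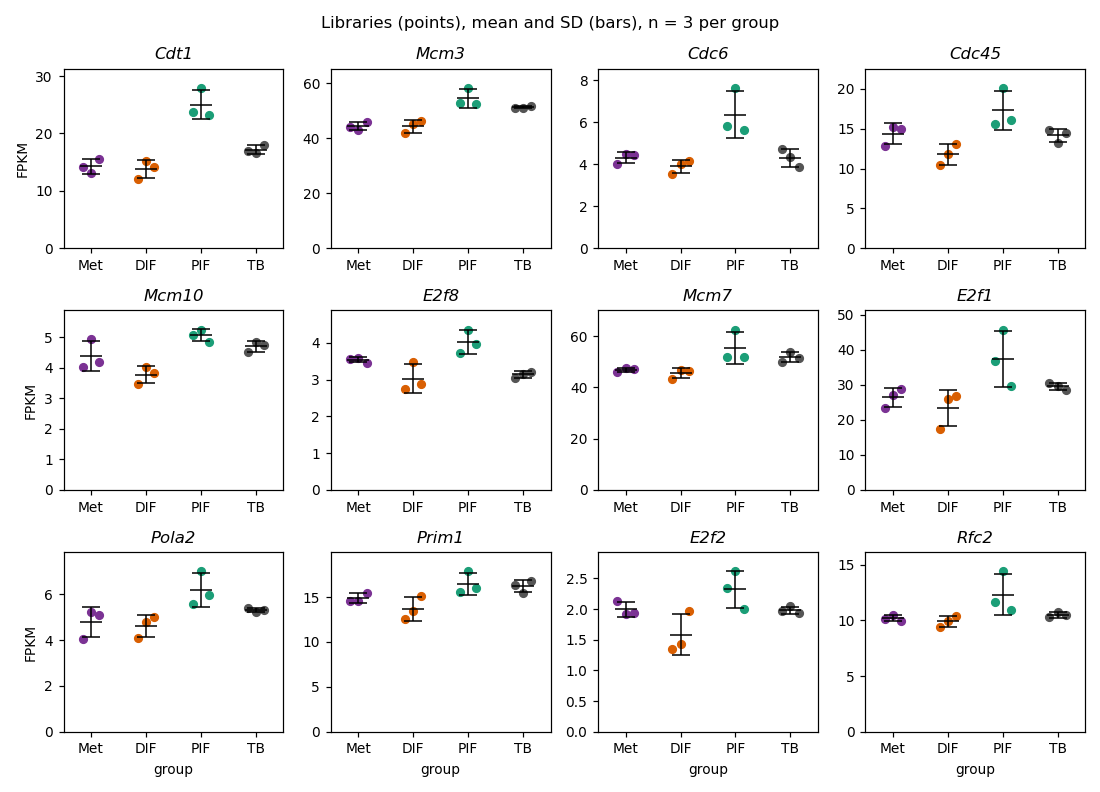
FPKM (y axes, from 0) of the 12 members with the smallest F test p, in the groups Met, DIF, PIF and TB. Points are the 3 libraries of a group in the order of replicates, and bars give mean and SD; the PIF points of Cdt1 and Cdc6 lie above all others.

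The helicase is activated by Cdc45, the 4 GINS subunits and Mcm10. Of these 6 genes, Cdc45 and Mcm10 fell in DIF against PIF cells (33.3%, against 9.85% of all genes tested). The GINS genes were not called by limma as run. Cdc45 (ENSMUSG00000000028, chromosome 16 from 18599197 to 18630737, minus strand) had 12.8, 15.3 and 14.9 FPKM in Met cells, 10.4, 11.8 and 13.1 in DIF cells, 15.6, 20.1 and 16.1 in PIF cells and 14.9, 13.3 and 14.5 in TB cells. The DIF libraries lay below all PIF libraries, and DIF replicate 3 lay near TB replicate 2. Cdc45 fell in DIF against PIF cells (log2 fold change −0.52, SE 0.11, adjusted p = 0.00488), kept under all 21 alternatives, and the DIF mean was 0.681 times the PIF mean. Met cells were between both, 0.27 over DIF cells (adjusted p = 0.221) and −0.25 against PIF cells (adjusted p = 0.135), with neither gap called.

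Mcm10, which binds the helicase as it opens (ENSMUSG00000026669, chromosome 2 from 4994525 to 5017602, minus strand), had 4.01, 4.93 and 4.19 FPKM in Met cells, 3.47, 4.01 and 3.83 in DIF cells, 5.08, 5.25 and 4.85 in PIF cells and 4.51, 4.84 and 4.75 in TB cells. Its PIF libraries were close together, and PIF replicate 2 exceeded replicate 1 by little. Mcm10 fell in DIF against PIF cells (log2 fold change −0.35, SE 0.075, adjusted p = 0.00676) and kept this call whichever single library was left out, losing it only when PIF replicate 2 and DIF replicate 1 were both left out (adjusted p = 0.0637). In DIF against TB cells the difference was −0.26 (SE 0.075, adjusted p = 0.0548), which was not called in the comparison as run, and was called with quantile normalization, by voom, with the replicate block and without Met replicate 2. Gins4 averaged 29.96 ± 2.72 FPKM in Met, 28.2 ± 0.837 in DIF, 34.9 ± 2.12 in PIF and 29.00 ± 4.22 in TB cells and had the lowest adjusted p of the GINS genes, 0.0522 in DIF against PIF cells (−0.30). Gins4 was called in DIF against PIF cells by voom, with quantile normalization, with the replicate block, at a mean FPKM of at least 2, with only the 6 libraries fitted, with scaling to total reads, and without TB replicate 1, TB replicate 3 or Met replicate 1, and in PIF against TB cells without TB replicate 3. Gins1, Gins2 and Gins3 had −0.12, −0.045 and −0.22 in DIF against PIF cells, with adjusted p of 0.606, 0.823 and 0.133. The 4 subunits of this complex, which are present in equal numbers in the assembled protein, had log2 fold changes from −0.045 to −0.30. Differences between these genes were not tested.

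PCNA, the sliding clamp that holds polymerases on DNA, was the most abundant member. Pcna had 113.3, 120.2 and 119.1 FPKM in Met cells, 94.6, 95.1 and 116.4 in DIF cells, 107.4, 146.7 and 134.8 in PIF cells and 111.5, 127.0 and 129.9 in TB cells. Only PIF replicates 2 and 3 exceeded the other groups, and DIF replicates 1 and 2 lay below all other libraries. The difference in DIF against PIF cells, −0.34 (SE 0.11, adjusted p = 0.0588), was not called as run, and was called by voom, with quantile normalization, with the replicate block, and without PIF replicate 1 or DIF replicate 3. Of the 5 subunits of the clamp loader, Rfc2 and Rfc5 fell in DIF against PIF cells, with 9.85% of all genes tested called lower. Rfc2 (ENSMUSG00000023104, chromosome 5 from 134610220 to 134630659, plus strand) had 10.1, 10.5 and 9.93 FPKM in Met cells, 9.42, 9.91 and 10.4 in DIF cells, 11.6, 14.4 and 10.9 in PIF cells and 10.3, 10.8 and 10.4 in TB cells, so that its PIF libraries lay above all others, and fell (log2 fold change −0.28, SE 0.084, adjusted p = 0.0375), a call kept only without PIF replicate 1, PIF replicate 3 or Met replicate 1 among the omissions of 1 library. Rfc5 had 10.6, 10.3 and 11.1 FPKM in DIF cells and 11.9, 13.7 and 11.8 in PIF cells, and fell (log2 fold change −0.21, SE 0.062, adjusted p = 0.0376), a call lost without PIF replicate 2, DIF replicate 1, DIF replicate 2, Met replicate 2, Met replicate 3 or TB replicate 3. Rfc3 and Rfc4 had −0.16 and −0.24 (adjusted p of 0.236 and 0.0844). Rfc3 was called without PIF replicate 3 and Rfc4 with the replicate block.

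Rfc1, the large subunit of the loader, ran differently from the others. It had 19.5, 17.1 and 18.1 FPKM in Met cells, 19.3, 16.4 and 17.99 in DIF cells, 17.1, 17.4 and 17.7 in PIF cells and 18.8, 19.2 and 18.6 in TB cells. Its PIF mean was the lowest of the 4 groups, and the 3 PIF libraries lay below the 3 TB libraries, although the difference of −0.11 (SE 0.065, adjusted p = 0.287) in PIF against TB cells was not called.

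Primer synthesis is the work of the polymerase alpha and primase complex, made of Pola1, Pola2, Prim1 and Prim2. Pola2 and Prim1 fell in DIF against PIF cells, and Pola2 fell in Met against PIF cells as well. Of all genes tested, 9.85% and 8.8% were called lower in these comparisons. Pola2 (ENSMUSG00000024833, chromosome 19 from 5990570 to 6014230, minus strand) had 4.04, 5.21 and 5.11 FPKM in Met cells, 4.10, 4.78 and 5.02 in DIF cells, 5.57, 6.998 and 5.98 in PIF cells and 5.39, 5.25 and 5.31 in TB cells. All Met and DIF libraries lay below all PIF libraries, and the TB libraries lay close together between them, overlapping with neither PIF nor DIF cells. Pola2 fell in DIF against PIF cells (log2 fold change −0.35, SE 0.099, adjusted p = 0.0281) and in Met against PIF cells (log2 fold change −0.31, SE 0.099, adjusted p = 0.0484). The first call was lost without PIF replicate 2, DIF replicate 1 or DIF replicate 2, and the second was kept only without PIF replicate 1 or DIF replicate 1 among the omissions of 1 library. Prim1 (ENSMUSG00000025395, chromosome 10 from 127851037 to 127865906, plus strand) had 14.5, 14.6 and 15.5 FPKM in Met cells, 12.5, 13.4 and 15.1 in DIF cells, 15.5, 17.9 and 16.01 in PIF cells and 16.4, 15.4 and 16.8 in TB cells. PIF and TB cells overlapped for Prim1, and every DIF library lay below every PIF and TB library. Prim1 fell in DIF against PIF cells (log2 fold change −0.25, SE 0.074, adjusted p = 0.0318), a call lost without PIF replicate 2, DIF replicate 1 or DIF replicate 2.

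Prim2, the large primase subunit, had −0.18 in DIF against PIF cells (adjusted p = 0.185). Pola1, the catalytic subunit of the same complex, had 10.2 ± 0.744 FPKM in Met, 8.94 ± 0.487 in DIF, 9.14 ± 0.904 in PIF and 9.82 ± 0.197 in TB cells, and its highest library was Met replicate 3. Its log2 fold change in DIF against PIF cells was −0.027 (SE 0.075), so the catalytic and the accessory subunit of polymerase alpha were not called alike, although the difference between the genes was not tested. Polymerase delta is known, mainly from yeast, to copy the lagging strand. Its subunits Pold1 and Pold2 were the 2 members whose DIF mean was the highest of the 4 group means: Pold1 averaged 12.5 ± 1.16 FPKM in Met, 14.3 ± 1.61 in DIF, 13.9 ± 2.84 in PIF and 14.2 ± 0.921 in TB cells, and Pold2 31.2 ± 2.11 FPKM in Met, 32.6 ± 1.93 in DIF, 28.99 ± 3.96 in PIF and 31.01 ± 1.67 in TB cells. Neither was called in any comparison. Polymerase epsilon, the leading strand enzyme of yeast, was represented by Pole and Pole2, with log2 fold changes of −0.21 and −0.20 in DIF against PIF cells and of −0.11 and −0.29 in DIF against TB cells, none of them called.

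**Figure D4:**
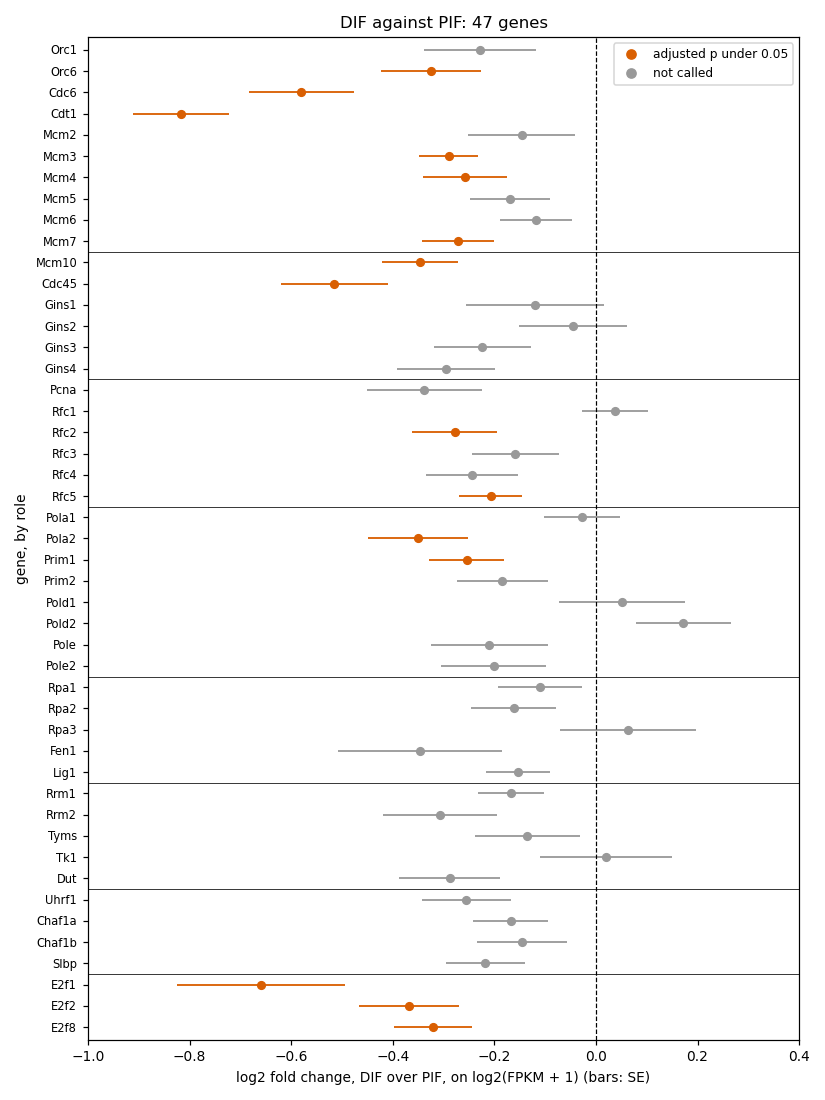
Log2 fold change in DIF over PIF cells on the log2(FPKM + 1) scale (x axis) for each of the 47 genes (y axis, by role), with bars of 1 SE from limma, coloured where the adjusted p is under 0.05. The 15 called genes all lie left of 0, and Pold1, Pold2, Rfc1, Rpa3 and Tk1 lie right of it.

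No gene of the RPA complex, which covers single-stranded DNA, and neither of the enzymes that process and join Okazaki fragments was called by limma as run. Rpa1, the large RPA subunit, was highest in Met cells: it had 46.00, 49.8 and 49.1 FPKM in Met cells, 36.4, 42.3 and 44.6 in DIF cells, 42.3, 49.5 and 41.4 in PIF cells and 40.1, 41.4 and 39.8 in TB cells. All 3 Met libraries lay above all DIF and TB libraries, and PIF replicate 2 lay among them. The difference in Met against TB cells was 0.25 (SE 0.083, adjusted p = 0.0811), called when quantile normalization was used, with only the 6 libraries fitted, with scaling to total reads, and without PIF replicate 2, DIF replicate 1 or both. Rpa2 and Rpa3 had −0.093 and −0.10 in the same comparison. Lig1, the ligase of Okazaki fragments, averaged 29.02 ± 0.204 FPKM in Met, 29.1 ± 1.62 in DIF, 32.5 ± 2.59 in PIF and 32.7 ± 0.980 in TB cells, and was called lower in both DIF and Met against PIF cells without PIF replicate 1. Fen1, the flap endonuclease, was sparse at 2.39 ± 0.390 FPKM in Met, 1.96 ± 0.679 in DIF, 2.72 ± 0.530 in PIF and 2.21 ± 0.202 in TB cells, with 50 to 144 reads in a library.

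None of the 5 nucleotide supply genes was called by limma as run. Ribonucleotide reductase makes deoxynucleotides and consists of Rrm1 and Rrm2, of which Rrm2 rises in S phase. Rrm2 had 76.96, 81.9 and 83.5 FPKM in Met cells, 59.6, 70.3 and 73.9 in DIF cells, 80.3, 101.3 and 72.7 in PIF cells and 80.3, 90.6 and 88.04 in TB cells. Its DIF libraries lay below all Met and TB libraries but overlapped with those of PIF cells, where replicates 1 and 2 were higher and replicate 3 was not. The log2 fold change of Rrm2 was −0.34 (SE 0.11, adjusted p = 0.0847) in DIF against TB cells and 0.25 (SE 0.11, adjusted p = 0.286) in Met against DIF cells, and that of Rrm1 was 0.19 (SE 0.065, adjusted p = 0.146) in Met against DIF cells, whose libraries did not overlap. Tyms, the thymidylate synthase, and Dut, the dUTPase that keeps uracil out of DNA, had −0.14 and −0.29 in DIF against PIF cells. Dut was called in that comparison by voom, with quantile normalization, with the replicate block and without PIF replicate 1, and Rrm2 with quantile normalization, with the replicate block and without PIF replicate 3. In DIF against TB cells Rrm2 was called by voom and without PIF replicate 2. Tk1, thymidine kinase, hardly differed between group means, at 19.8 ± 2.02 FPKM in Met, 19.2 ± 2.35 in DIF, 19.1 ± 3.73 in PIF and 19.9 ± 1.85 in TB cells, and its F test had the highest adjusted p of the 47 genes, 0.954.

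None of the 4 genes of chromatin and histone supply was called by limma as run. Uhrf1 was called in DIF against PIF cells by voom, with quantile normalization, with the replicate block and without PIF replicate 3. Slbp was called in both DIF and Met against PIF cells with the replicate block and without PIF replicate 1. Uhrf1 recruits the maintenance DNA methyltransferase to newly copied DNA and averaged 52.5 ± 0.738 FPKM in Met, 48.6 ± 3.28 in DIF, 58.5 ± 8.48 in PIF and 55.1 ± 1.14 in TB cells. Chaf1a and Chaf1b, of the histone chaperone CAF-1, had log2 fold changes of −0.17 and −0.14 in DIF against PIF cells, and Slbp, which binds the stem loop of histone messages, had −0.22 in DIF and −0.22 in Met against PIF cells (adjusted p of 0.0725 and 0.0694). These genes were each highest in PIF replicate 2.

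All 3 E2F factors fell in DIF against PIF cells (100%, against 9.85% of all genes tested). Of the 3, E2f8 rose in PIF against TB cells (33.3%, against 7.52%). E2f1, an activator of S phase genes (ENSMUSG00000027490, chromosome 2 from 154401327 to 154411812, minus strand), had 23.4, 27.04 and 28.8 FPKM in Met cells, 17.4, 25.8 and 26.8 in DIF cells, 36.8, 45.7 and 29.7 in PIF cells and 30.5, 29.7 and 28.4 in TB cells. PIF replicate 3 lay inside the TB range while replicates 1 and 2 lay above it, and DIF replicate 1 lay far below the other libraries, and E2f1 had the largest standard error of the 47 genes. E2f1 fell in DIF against PIF cells (log2 fold change −0.66, SE 0.17, adjusted p = 0.0157), a call lost without PIF replicate 2 and without DIF replicate 1. E2f2, the least abundant member (ENSMUSG00000018983, chromosome 4 from 135899705 to 135923368, plus strand), had 2.14, 1.92 and 1.93 FPKM in Met cells, 1.35, 1.43 and 1.97 in DIF cells, 2.35, 2.61 and 2.01 in PIF cells and 1.97, 2.05 and 1.93 in TB cells. It fell in DIF against PIF cells (log2 fold change −0.37, SE 0.099, adjusted p = 0.0222), a call lost without PIF replicate 1, PIF replicate 2, DIF replicate 1 or DIF replicate 2. DIF replicate 3, the highest of its group, lay just below PIF replicate 3, the lowest of its own.

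E2f8, an atypical E2F that represses E2F targets later in S phase (ENSMUSG00000046179, chromosome 7 from 48516177 to 48531344, minus strand), had 3.57, 3.60 and 3.46 FPKM in Met cells, 2.73, 3.48 and 2.88 in DIF cells, 3.74, 4.36 and 3.97 in PIF cells and 3.05, 3.16 and 3.22 in TB cells. Its PIF libraries lay above all others, and its Met libraries lay above the TB libraries. E2f8 rose in PIF against TB cells (log2 fold change 0.28, SE 0.077, adjusted p = 0.0351) and fell in DIF against PIF cells (log2 fold change −0.32, SE 0.077, adjusted p = 0.0126). The rise in PIF against TB cells was lost in 11 of the 21 alternatives. These were no filter, quantile normalization, only the 6 libraries fitted, and PIF replicate 2 and DIF replicate 1 both left out. The others were the omission of PIF replicate 2, PIF replicate 3, Met replicate 2, Met replicate 3 or any 1 TB library. The fall in DIF against PIF cells was lost without DIF replicate 1, with only the 6 libraries fitted, and with PIF replicate 2 and DIF replicate 1 both left out.

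DIF against PIF cells was the comparison in which the members moved most. The median log2 fold change of the 47 genes was −0.22, against 0.0075 over all genes tested, and 42 were below 0 (89.4%, against 48.3% of all genes). In 20 genes (42.6%) all DIF libraries lay below all PIF libraries, against 15.7% of all genes. The 15 called genes belonged to licensing, helicase activation, the clamp loader, primer synthesis and the E2F factors. With only the 6 DIF and PIF libraries fitted, 5 of the 15 kept the call (Cdt1, Cdc6, Mcm3, Mcm10 and Cdc45), with 6.44% of all genes called lower. Without a filter 9 of the 15 kept it, with 4.7% of all genes called lower, and E2f2, Mcm4, Orc6, Pola2, Prim1 and Rfc2 lost it. Other settings also called genes of further roles, among them Dut and Uhrf1 by voom, and Dut, Rrm2 and Uhrf1 with quantile normalization, as given with each gene. Without PIF replicate 2, 7 of the 15 kept the call (Cdt1, Cdc6, Mcm3, Mcm7, Mcm10, Cdc45 and E2f8) and the median was −0.14. All genes called lower then came to 8.88%. Without DIF replicate 1, 5 did (Cdt1, Cdc6, Mcm3, Mcm10 and Cdc45), with a median of −0.16, against 7.67% of all genes called lower. Without DIF replicate 2, 8 did, against 7.71%. With PIF replicate 2 and DIF replicate 1 both left out, an omission chosen after their values were seen, Cdt1, Cdc6, Mcm3 and Cdc45 kept the call and the median was −0.078. These were 4 of the 47 members, near the 8.06% of all genes called lower in that omission. The sum of fibroblast markers differed in this comparison: 7 of them, of which 1 passed the filter, summed to 10.9 to 15.8 FPKM in DIF cells and 5.58 to 8.98 in PIF cells. Col3a1 made up most of this, with a mean of 12.3 FPKM in DIF and 6.86 in PIF cells. Col1a1 and Pdgfrb were also higher in DIF cells and Pdgfra and Dcn lower, each with means under 0.5 FPKM. Col1a2 and Dcn stayed under 0.27 FPKM and Lum was at 0 in 11 libraries. Melanocyte markers, of which 6 of 14 passed the filter, summed to 291 to 341 FPKM in DIF cells and 477 to 532 in PIF cells. Gpnmb carried most of that gap, with a mean of 7.66 FPKM in DIF cells and 170.3 in PIF cells, while Sox10 averaged 221 in DIF and 249 in PIF cells and S100b 78.03 in DIF and 66.2 in PIF cells. Leukocyte markers, of which 1 of 13 passed the filter, summed to 0.827 to 1.41 FPKM in DIF cells and 1.66 to 3.35 in PIF cells. Endothelial markers, of which 0 of 6 passed the filter, summed to 0.0656 to 0.138 FPKM in DIF cells and 0.144 to 0.208 in PIF cells. The mitochondrial share of reads was 0.491 ± 0.0576% in DIF cells and 0.617 ± 0.120% in PIF cells (SD, n = 3). Their part in the result was not tested.

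In Met against PIF cells the median was −0.14, against 0.0047 over all genes, and 38 of the 47 genes were below 0 (80.9%, against 49.1%). All Met libraries lay below all PIF libraries in 17 genes (36.2%), against 15.7% of all genes. The genes that fell were Cdt1, Cdc6, Mcm3, Mcm7 and Pola2. Cdt1, Cdc6 and Mcm3 kept the call whichever library was left out. The count was 8 without PIF replicate 1, with 6.61% of all genes called lower. It was 3 without PIF replicate 2, any 1 TB library, DIF replicate 2, DIF replicate 3, Met replicate 1 or Met replicate 3 (6.56 to 8.42%). Further genes called in omissions of 1 library were Lig1, Mcm4 and Slbp without PIF replicate 1, E2f1 and Rfc2 without PIF replicate 3, E2f1 without DIF replicate 1 and Mcm10 without Met replicate 2, and voom also called E2f1 and Rfc2, all of them lower in Met cells. Without PIF replicate 2 the median was −0.048. Rpa1 was called higher in Met cells when PIF replicate 2 and DIF replicate 1 were both left out. Melanocyte markers summed to 302 to 355 FPKM in Met cells, below PIF cells. Gpnmb carried most of that gap (6.57 in Met, 170.3 in PIF), while S100b was higher in Met cells (93.8 against 66.2). Leukocyte markers summed to 1.11 to 1.26 FPKM, also below PIF cells. The part of these markers in the result was not tested.

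In PIF against TB cells, Cdt1, Cdc6 and E2f8 rose and no other member was called by limma as run. Gins4 was called without TB replicate 3 and Rfc2 without PIF replicate 3, both higher in PIF cells. Gins2 was called lower in PIF cells when PIF replicate 2 and DIF replicate 1 were both left out. The median over the 47 genes was 0.089, against 0.00021 over all genes, and 36 were above 0 (76.6%, against 50.1%). Without PIF replicate 2 the median was 0.0049, and Cdt1 and Cdc6 kept the call while E2f8 did not. The groups did not overlap in 10 genes, 9 higher in PIF cells (19.1%, against 15.7% of all genes) and Rfc1 lower (15.1% of all genes). Melanocyte markers summed to 477 to 532 FPKM in PIF cells and 401 to 448 in TB cells. Gpnmb carried most of that gap (170.3 in PIF, 93.5 in TB), while S100b was lower in PIF cells (66.2 against 82.7). Fibroblast markers summed to 5.58 to 8.98 FPKM in PIF cells and 10.7 to 11.4 in TB cells. Keratinocyte markers, of which 1 of 5 passed the filter, summed to 2.02 to 2.61 in PIF cells and 3.06 to 3.31 in TB cells. None of the 3 marker sums overlapped between PIF and TB cells. Their part in the result was not tested.

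In DIF against TB cells no member was called by limma as run, and 43 of 47 were below 0 (91.5%, against 50.4% of all genes), with a median of −0.12, or −0.073 without DIF replicate 1. All DIF libraries lay below all TB libraries in 16 genes (34%), against 15.1% of all genes. The number of calls was 4 without PIF replicate 2 (Cdt1, Mcm3, Mcm7 and Rrm2), with 5.07% of all genes called lower. It was 1 without PIF replicate 3 (Mcm3), DIF replicate 3 (Prim1) or Met replicate 2 (Mcm10), with 3.7 to 4.68% called lower. All of these calls were lower in DIF cells. Melanocyte markers, at 291 to 341 FPKM in DIF cells and 401 to 448 in TB cells, did not overlap either. Gpnmb carried most of that gap (7.66 in DIF, 93.5 in TB). Mitf averaged 4.24 in DIF and 15.2 in TB cells, and Sox10 221 in DIF and 230 in TB cells. Leukocyte markers summed to 0.827 to 1.41 FPKM in DIF cells and 1.83 to 2.82 in TB cells. Keratinocyte markers summed to 2.16 to 2.68 in DIF cells and 3.06 to 3.31 in TB cells. Endothelial markers summed to 0.0656 to 0.138 in DIF cells and 0.158 to 0.360 in TB cells. The part of these markers was not tested.

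In Met against TB cells the median was −0.045 (−0.074 without TB replicate 1, −0.026 without Met replicate 1 and −0.021 with scaling to total reads), 31 of 47 genes were below 0 (66%, against 50.7% of all genes) and Mcm3 alone fell. The groups did not overlap in 9 genes lower in Met cells (19.1%, against 16.2%) and in 2 that were higher, E2f8 and Rpa1 (4.26%, against 16.9%). Without PIF replicate 2 or DIF replicate 1 there were 2 calls, Mcm3 lower and Rpa1 higher, with 11.6% and 10.4% of all genes called. Without PIF replicate 1, DIF replicate 2, DIF replicate 3, any 1 Met library or any 1 TB library there were 0 (6.26 to 9.53%). With quantile normalization and with scaling to total reads the single call was Rpa1, higher in Met cells, in place of Mcm3. Melanocyte markers summed to 302 to 355 FPKM in Met cells and 401 to 448 in TB cells. Gpnmb carried most of that gap (6.57 in Met, 93.5 in TB), while S100b was higher in Met cells (93.8 against 82.7). Fibroblast markers summed to 7.63 to 9.55 in Met cells and 10.7 to 11.4 in TB cells. The part of these markers was not tested. In Met against DIF cells the median was 0.082, with 39 of 47 genes above 0 (83%, against 49.6% of all genes). Met libraries lay above all DIF libraries in 6 genes, Rpa1, Rrm1, Rrm2, Rfc5, Uhrf1 and Dut (12.8%, near the 12% of all genes). This median was 0.024 without DIF replicate 1 and 0.13 without Met replicate 1. Fibroblast markers summed to 7.63 to 9.55 FPKM in Met cells and 10.9 to 15.8 in DIF cells, and their part was not tested. Comparisons that share a group share its libraries, so these results are not independent of each other.

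Lists of related genes were described in the same fits. Of 35 other replication fork and origin genes tested, out of 36 listed, 10 fell (28.6%, against 9.85% of all genes tested) and 0 rose in DIF against PIF cells, with a median of −0.16. Examples are Pold4, a small polymerase delta subunit (−0.58, SE 0.10, adjusted p = 0.00156), and Wdhd1, whose yeast counterpart ties polymerase alpha to the helicase (−0.38, SE 0.067, adjusted p = 0.00179). In PIF against TB cells 4 rose (11.4%, against 7.52%) and 0 fell, among them the fork protection gene Donson (0.48, SE 0.10, adjusted p = 0.0109). In DIF against TB cells 3 fell (8.57%, against 4.36%), among them the checkpoint mediator Clspn (−0.36, SE 0.070, adjusted p = 0.00843), and in Met against TB cells 2 fell (5.71%, against 4.63%). PIF replicate 2 was the highest library in 19 of the 35. Among 12 other chromatin replication genes, only Mms22l fell in DIF against PIF cells (8.33%, near the 9.85% of all genes tested). Only Dnmt1, the maintenance DNA methyltransferase, fell in Met against PIF cells (8.33%, near the 8.8% of all genes tested).

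Of 21 other nucleotide supply genes, 2 fell and 2 rose in DIF against PIF cells (9.52% each way, near the 9.85% lower and 9.03% higher of all genes tested), and 4 fell and 1 rose in Met against PIF cells (19% and 4.76%, against 8.8% lower and 8.85% higher). The mitochondrial one-carbon enzymes Shmt2 and Mthfd2 led both, Shmt2 in DIF against PIF cells (−0.75, SE 0.089, adjusted p = 0.00011) and in Met against PIF cells (−0.93, SE 0.089, adjusted p = 2.3e-05). Among 30 G1 to S regulators tested, out of 32 listed, 8 fell and 4 rose in DIF against PIF cells (26.7% and 13.3%, against 9.85% and 9.03%). Ccne1 and Ccne2, the E cyclins that start S phase, fell: Ccne1 averaged 9.17 ± 0.984 FPKM in DIF cells and 16.5 ± 2.18 in PIF cells (−0.78, SE 0.095, adjusted p = 0.00014), and Ccne2 9.96 ± 1.08 FPKM in DIF cells and 16.3 ± 0.549 in PIF cells (−0.66, SE 0.084, adjusted p = 0.00019; SD, n = 3). In PIF against TB cells 3 of these regulators rose, Ccne1 among them (0.56, SE 0.095, adjusted p = 0.003), and 6 fell (10% and 20%, against 7.52% and 6.58%). Replication-dependent histones, 34 of 63 tested, had at most 2 calls in either direction in any comparison.

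Genes of G2 and mitosis stood on the other side of 0 from the replication genes in some comparisons and on the same side in others. In PIF against TB cells, 16 of 36 fell (44.4%, against 6.58% of all genes tested) and 0 rose, with a median of −0.21, where the 47 members had 3 that rose and a median of 0.089. In Met against PIF cells 21 rose (58.3%, against 8.85%) and 0 fell, with a median of 0.25, where the members had 5 that fell and a median of −0.14. In DIF against PIF cells 3 of the 36 rose (8.33%, against 9.03%) and 0 fell, with a median of −0.018, where the members had 15 that fell. In DIF against TB cells both lists were mostly below 0: 34 of the 36 were, 9 fell (25%, against 4.36%) and the median was −0.17, where 43 of the 47 members were below 0. In Met against DIF cells both were mostly above 0: all 36 were, 9 rose (25%, against 2.36%) and the median was 0.25, where 39 of the 47 members were above 0. In Met against TB cells 1 of the 36 rose and 28 were above 0 (median 0.070), where 31 of the 47 members were below 0. PIF replicate 2, the highest library in 43 replication genes, was the highest in 1 of the 36 G2 and mitosis genes. Whether the 2 lists differ in these comparisons was not tested.

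**Figure D5:**
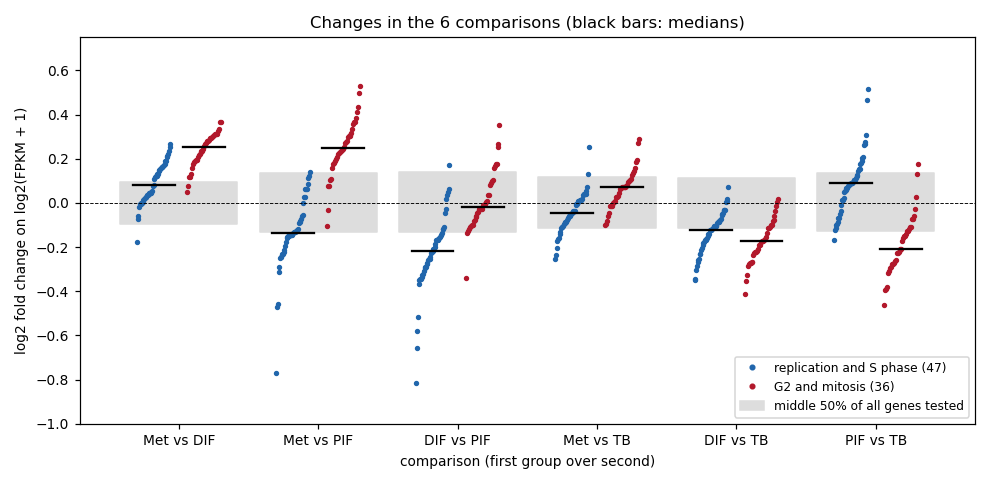
Log2 fold change per gene, from log2(FPKM + 1) (y axis), in the 6 comparisons (x axis, first group over second) for the 47 replication and S phase genes and 36 G2 and mitosis genes, each point a gene and each black bar a median, over a grey band that holds the middle 50% of all genes tested. In PIF against TB cells the medians were 0.089 and −0.21, and in DIF against PIF cells −0.22 and −0.018.

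Of the 47 genes, 24 overlapped another gene of the table and 11 overlapped one with a mean FPKM of at least 0.5, each on the opposite strand. The strand setting of the counting is not given in the sources used here, so reads of such pairs may not be separated. The pairs were Cdc45 with Ufd1, Mcm7 with Cops6 and Ap4m1, Orc6 with Vps35, Rfc5 with Wsb2, Rfc4 with Eif4a2, Chaf1a with Ubxn6, Fen1 with Tmem258 (2.32 and 33.8 FPKM on average over the 12 libraries), Rfc2 with Lat2, Lig1 with Zswim9, Gins2 with Gse1 and Tk1 with Afmid. Cdt1, Cdc6, Mcm3, Mcm10 and the E2F genes had no such partner.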

How the data were processed

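RNA of 12 libraries of 4599 cells was sequenced, per the labels' protocols, in read pairs of 150 bases. The submitters' processing notes name fastp, HISAT2 2.0.5 and featureCounts 1.5.0-p3; the sources used here give no genome build, annotation or strand setting. The authors deposited FPKM per gene, per the file headers. FPKM times gene length gave whole multiples of 1 step in each library (100% of values up to 1000 reads, tolerance 0.001), from which reads were rebuilt; median-ratio size factors of the deposited FPKM were 1.01 in every library, so the values had already been scaled.

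The 12661 genes whose mean FPKM reached 0.5 were fitted on log2(FPKM + 1) with limma 3.58.1 in R 4.3.3 (1 mean per group, intensity trend, 8 residual degrees of freedom) and tested two-sided in 6 comparisons and a moderated F test, with Benjamini-Hochberg adjustment in each. The added 1 understates changes of genes with low FPKM. The fit was tested on simulated data. Alternatives were another pseudocount (0.1), no filter, a mean FPKM of at least 2, quantile normalization, limma voom on rebuilt reads, a replicate block, only the 6 libraries compared, each library left out, and 2 added after seeing the data: PIF replicate 2 and DIF replicate 1 both left out, and scaling to total reads. Values in every library are given for the 12 members with the smallest F test p and for the 2 called members with the largest change in each direction of each comparison; other members shown with every library were chosen after their values were seen. Members, roles and lists were chosen with earlier results of these data known. Promoter sequences and motif searches used RefSeq entries of GRCm38.p6 with Python 3.11.15.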

Additional observations from a re-analysis of the deposited data

How the results depend on the processing

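Of the log2 fold changes of called members and the medians over the 47 genes, 0 changed sign under the 21 alternatives; signs of members that were not called were not followed. The median over all genes lay near 0 and did change sign, in PIF against TB from 0.00021 as run to −0.0104 with quantile normalization and −0.00546 without PIF replicate 2. The 1 call in Met against TB was Mcm3, lower, as run, and Rpa1, higher, with quantile normalization or scaling to total reads. Left out singly, libraries moved the number of called members between 2 and 3 in PIF against TB (7.57 to 14.6% of all genes called). The number moved between 0 and 4 in DIF against TB (4.65 to 9.98%) and 0 and 2 in Met against TB (6.26 to 11.6%). In DIF against PIF it moved between 5 and 18 (14.4 to 18.8%), and in Met against PIF between 3 and 8 (12.8 to 18.2%). In the F test it moved between 3 and 11 (18.8 to 24.6%), and in Met against DIF it stayed at 0 (1.85 to 4.7%). The median of DIF against PIF ran from −0.26 to −0.14. With only the 6 libraries compared, calls numbered 1 in PIF against TB (8.94% of all genes called) and 2 in Met against TB (11.5%). They numbered 6 in DIF against PIF (11.8%) and 3 in Met against PIF (12.2%). Without a filter they numbered 0 in Met against TB (4.23%), 9 in DIF against PIF (8.53%), 3 in Met against PIF (7.87%) and 4 in the F test (10.6%). That setting ran over 27256 genes in place of 12661. DIF against TB had 1 call with quantile normalization (8.56%) and 3 by voom (10.2%). Without PIF replicate 2 and DIF replicate 1 there were 3 calls in Met against TB (12.6%), 4 in DIF against PIF (15.2%) and 4 in the F test (24%). The median in DIF against PIF was then −0.078. The cause of these shifts was not tested. With the replicate block, calls numbered 1 in DIF against TB (9.68% of all genes called) and 0 in Met against TB (10.4%). They numbered 8 in Met against PIF (18.5%) and 22 in DIF against PIF (20.2%). Deviations of libraries with the same number correlated at −0.20 to 0.33, over 0.1 in 5 of 18 pairs. Libraries with different numbers correlated at −0.33 to 0.32, so this check cannot decide whether the numbers mark a shared animal or day. The F test has no fit on 6 libraries, and E2f2 was not tested at a mean FPKM of at least 2. At 50 to 144 reads per library, Fen1 was the member most limited by depth.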
